A study of Mus musculus with 46 samples.

Results

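The genes described here are 7 early transcription factor genes, Egr1, Egr2, Nr4a1, Klf2, Klf4, Klf6 and Klf10, followed in mouse liver after a single toxic dose of carbon tetrachloride. They were chosen by name among the 18193 genes that the arrays read with a probe set naming exactly 1 gene. Earlier results of these data were known at that choice, so counts of these genes beside all genes are a description only. Each was read from the probe set whose mean across the 46 arrays was highest, and 13 probe sets read the 7 genes in all, 4 genes having only 1. A total of 6 of the 7 genes are among the 13239 that passed the filter on low values, which keeps genes that exceed the overall median of 5.55823 on 5 arrays or more. Egr2 exceeded that level on 4 arrays, all of them at 2 h, and its tests come from the fit of all 18193 genes with no filter. Klf4 exceeded it on 8 arrays, 2 at 2 h, 3 at 1 d, 2 at 2 d and 1 at 16 d, so it entered through groups in which it was high and its probe set reads close to the lower end of the scale.

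Livers of male C57BL/6N mice, 8 to 10 weeks old, were collected after 1 intraperitoneal injection of carbon tetrachloride (CCl4), a solvent that hepatocytes convert into a reactive radical, at 1.6 g/kg body weight in olive oil. Total RNA was read on 46 Affymetrix mouse genome arrays. There are 5 from untreated livers at time 0, 6 at 16 d after the injection and 5 at each time between, namely 2 and 8 h and 1, 2, 4, 6 and 8 d. All groups share strain, sex and a standard diet. The treatment field of the controls also reads CCL4, with no time, but the design text calls them untreated, and they are taken so here. The controls were then not injected, so each comparison with them also holds the effect of being injected with oil, and the hour of sampling is not stated. Arrays of a group carry numbers with no statement that each comes from its own animal, so the p-values reflect spread that may be partly technical. In whole liver, a change in the number of cells of a type and a change in RNA per cell cannot be told apart.

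Egr1, Egr2 and Nr4a1 are immediate early genes, which cells transcribe within minutes of a growth factor, stress or hormone signal from factors already present, without new protein synthesis. The Egr proteins are zinc finger activators that bind GC-rich sites, and Nr4a1 (Nur77) is an orphan nuclear receptor that in liver acts on glucose and lipid genes. Serum response factor (Srf) with its Elk cofactors is a classic activator of Egr genes, and the cAMP response element binding protein (Creb) of Nr4a1. The Klf proteins bind GC and CACCC boxes: Klf2 and Klf4 are best known from endothelium under blood flow, Klf6 from injured liver and stellate cells, and Klf10 as an early gene of transforming growth factor beta (TGF beta).

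The hepatocyte markers (6 genes) had mean log2 values of 13.55 to 14.77 in control liver, against 6.55 to 9.79 for 9 sinusoidal endothelial markers and 5.69 to 10.20 for 7 markers of Kupffer cells, the macrophages resident in liver. Arrays of a group correlated with r from 0.947 to 0.993 across genes, which are not independent replicates. Arrays 1 and 2 at 1 d had the lowest median correlation with their group (0.950 and 0.966), and the results of the 7 genes at 1 d are also given without them, as are those of other genes whose call ended or whose value moved by more than 1.5 times. The 3 prime minus 5 prime value of the Gapdh control probe sets, a sign of RNA integrity, ran from 0.27 to 0.43 in controls. It was below all controls at 8 h (0.05 to 0.26) and 2 d (0.16 to 0.24), with adjusted p = 0.0381 each by exact permutation test. It overlapped them at 2 h (-0.06 to 0.30), 1 d (0.10 to 0.31) and 4 d (0.14 to 0.31), with adjusted p = 0.0737 each by the same permutation test. The same value of the actin control probe sets ran from 1.34 to 1.56 in controls. It did not pass at any time (lowest adjusted p = 0.0922, at 8 d, by the same permutation test). The part of RNA integrity in the results was not tested. Errors after ± are standard errors from the limma fit, p values were adjusted by the Benjamini-Hochberg method over all genes in that limma fit, and a gene is called when its adjusted p is under 0.05. All values are log2 expression, and levels of different probe sets are not compared with each other.

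At 2 h most of the early genes rose. Egr1, Nr4a1, Klf2, Klf6 and Klf10 were higher than control, 5 of the 6 tested, and 0 were lower, where 6.41% of all 13239 genes were called higher and 19.9% lower. Egr2 was also higher in the fit without the filter, where 4.94% of genes were. Their median log2 fold change was 2.01 over the 6 tested genes and -0.03 over all genes. In Egr1, Klf2, Klf6 and Klf10 every array at 2 h lay above every control array, as in 4.34% of all genes, and Klf4 was not called.

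Egr1 read 11.87, 11.61, 11.98, 12.32 and 10.75 on the arrays at 2 h and 7.85, 6.90, 6.39, 6.72 and 9.35 in control. All 2 h arrays were above all controls, of which array 5 stood highest. The log2 fold change was 4.26 ± 0.44, or 19.2-fold (adjusted p = 1.11e-09), the 8th largest absolute change of all genes tested at that time.

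Egr2, the Egr family member also known as Krox20, read 6.35, 5.89, 5.75, 7.94 and 4.70 at 2 h and 4.23, 4.04, 4.02, 4.24 and 4.10 in control. Every 2 h array was above control, with array 4 far higher than array 5. The log2 fold change was 2.00 ± 0.29 (adjusted p = 2.83e-06 without the filter). Its other probe set, 1427682_a_at, gave 2.88 ± 0.36, with values of 3.73 to 8.15 at 2 h and 2.73 to 3.08 in control.

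Nr4a1 read 8.52, 7.78, 9.07, 10.12 and 8.03 at 2 h and 7.36, 7.95, 7.23, 7.16 and 7.11 in control. Array 2 at 2 h lay below control array 2, so the groups overlapped, while the other 4 arrays at 2 h were above all controls. The log2 fold change was 1.34 ± 0.23, or 2.53-fold (adjusted p = 2.94e-05).

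Klf2 moved least among the called genes. It read 6.78, 6.65, 7.12, 6.997 and 6.65 at 2 h and 6.19, 6.40, 6.53, 6.33 and 5.96 in control, with no overlap but a narrow gap between the groups. Its rise was 0.56 ± 0.15 on the log2 scale, or 1.47-fold (adjusted p = 0.00438).

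Klf6 read 8.76, 8.60, 11.09, 9.10 and 7.80 at 2 h and 6.17, 5.92, 6.19, 6.05 and 6.43 in control. Array 3 was high and array 5 low among the 2 h arrays, and all were clear of control. Klf6 thus stood higher by a log2 fold change of 2.92 ± 0.37, or 7.56-fold (adjusted p = 1.55e-07). Klf10 read 9.64, 10.24, 9.87, 9.55 and 9.46 at 2 h, a narrow range, and 6.00, 7.53, 6.48, 7.40 and 7.99 in control. Array 5 was the highest control and still below all arrays at 2 h. The log2 fold change was 2.67 ± 0.41, or 6.37-fold (adjusted p = 6.22e-06).

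Klf4 depended on the probe set. By 1417395_at, the one with the highest mean, it read 5.56, 5.16, 5.73, 5.70 and 5.22 at 2 h and 5.20, 5.13, 5.42, 5.15 and 5.26 in control. The groups overlapped and the log2 fold change of 0.24 ± 0.14 was not called (adjusted p = 0.231). By 1417394_at the log2 fold change was 0.90 ± 0.27, with values of 4.30 to 5.92 at 2 h and 3.85 to 4.82 in control, and was called (adjusted p = 0.0177 over all probe sets). Both probe sets read low, and the call for Klf4 at 2 h rests on which of them is used.

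**Figure D1:**
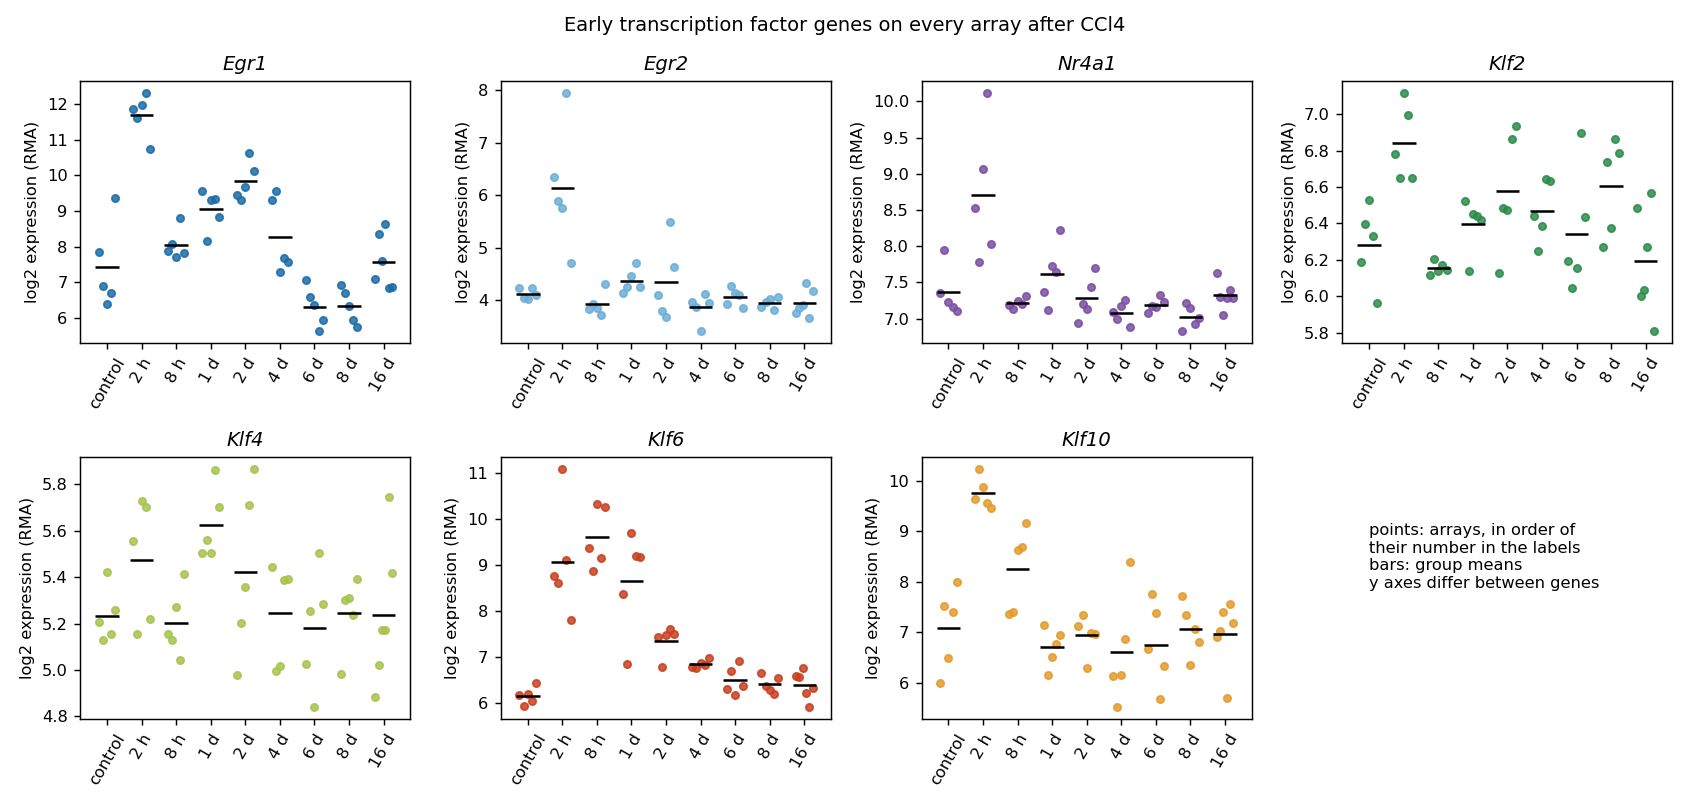
Log2 expression of each of the 7 genes (y axis, scaled separately for each gene) on all 46 arrays in control and at 8 times after CCl4 (x axis), where points are arrays and bars are group means. At 2 h Egr1 lies between 10.75 and 12.32 against 6.39 to 9.35 in control, and Klf6 is the gene whose arrays at 2 h, 8 h and 1 d are all above control.

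Which arrays at 2 h were high differed between the genes. Array 4 was the highest for Egr1, Egr2 and Nr4a1, array 3 for Klf2, Klf4 and Klf6, and array 2 for Klf10. Array 5 was the lowest for Egr1, Egr2, Klf6 and Klf10, and array 2 the lowest for Nr4a1, Klf2 and Klf4. On array 4 Egr2 and Nr4a1 stood 3.82 and 2.75 above the control mean, and on array 5 they stood 0.58 and 0.67 above it. Klf6 stood 4.94 above the control mean on array 3 and 1.65 on array 5. Klf10 varied less, from 2.38 on array 5 to 3.16 on array 2.

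**Figure D2:**
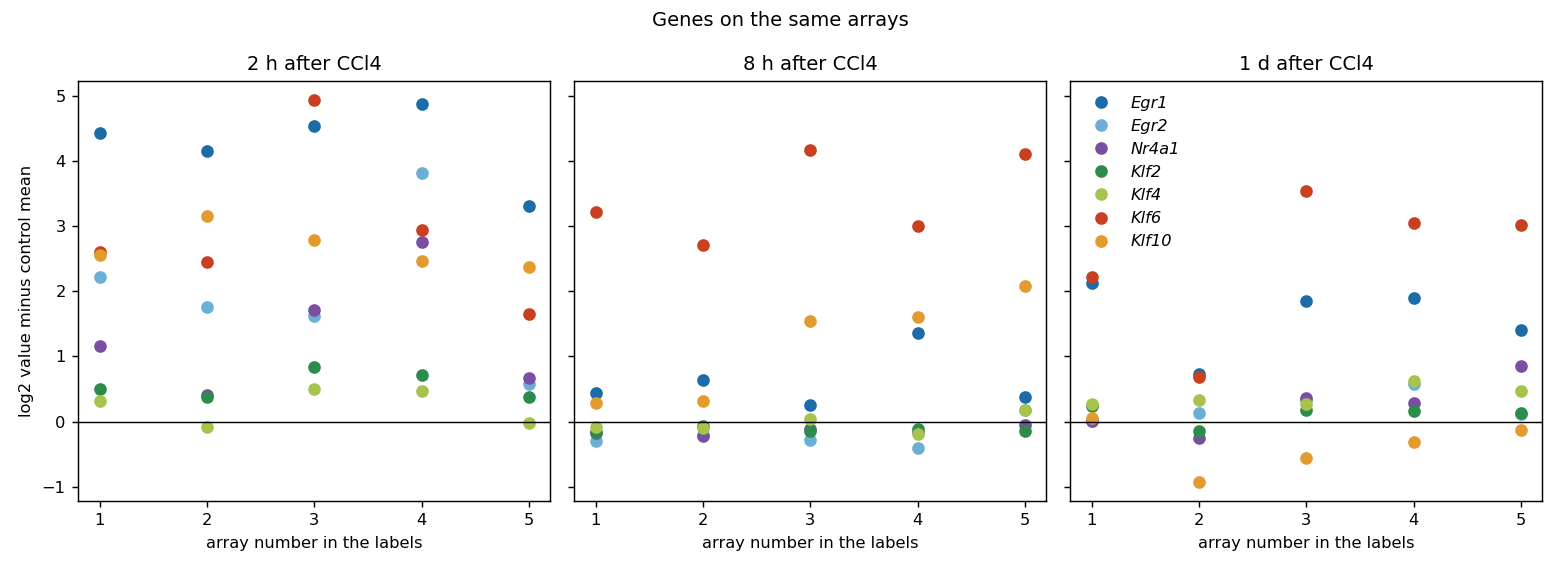
Log2 value of each gene on each array minus the gene's control mean (y axis) at 2 h, 8 h and 1 d, by the array number of the labels (x axis), which marks no order. At 2 h Egr2 and Nr4a1 are highest on array 4, at 3.82 and 2.75, whereas Klf6 is highest on array 3, at 4.94.

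Promoter sequence was looked at because most of these genes rose together at 2 h. Windows before the gene start were found for 5 of the 7 genes in RefSeq on GRCm38.p6 (5 windows for Egr2, 1 for each of the others), and motifs were searched in their 250 bases before the start on both strands, as in all 32851 windows of the table. The stretches shown carry searched Creb, Egr, Srf and Mef2 motifs, those of Egr2 not all being shown, with Klf6 as the gene with none of them. Capitals mark the cAMP response element (CRE) half-site TGACG, which reads CGTCA on the other strand, the Egr site GCGGGGGCG, the CArG box of Srf and the MEF2 box. Positions count back from the gene start, with -1 as the base before it.
Egr2, chr10:67537789-67537818, plus strand, from -80 to -51: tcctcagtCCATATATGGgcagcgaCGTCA
Nr4a1, chr15:101266612-101266641, plus strand, from -234 to -205: gCGTCAatggaaccccgcgtgCGTCAcgcg
Nr4a1, chr15:101266773-101266802, plus strand, from -73 to -44: tgtgCGTCAgtggCGCCCCCGCccctctcc
Nr4a1, chr15:101266803-101266832, plus strand, from -43 to -14: atgCGTCAcggagcgcttaagatgtgggtc
Klf2, chr8:72318812-72319061, plus strand, from -250 to -1: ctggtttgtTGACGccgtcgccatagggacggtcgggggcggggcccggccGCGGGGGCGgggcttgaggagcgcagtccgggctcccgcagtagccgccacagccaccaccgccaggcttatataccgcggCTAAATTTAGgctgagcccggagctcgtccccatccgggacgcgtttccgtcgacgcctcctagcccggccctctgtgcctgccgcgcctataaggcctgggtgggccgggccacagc
Klf4, chr4:55532476-55532725, minus strand, from -250 to -1: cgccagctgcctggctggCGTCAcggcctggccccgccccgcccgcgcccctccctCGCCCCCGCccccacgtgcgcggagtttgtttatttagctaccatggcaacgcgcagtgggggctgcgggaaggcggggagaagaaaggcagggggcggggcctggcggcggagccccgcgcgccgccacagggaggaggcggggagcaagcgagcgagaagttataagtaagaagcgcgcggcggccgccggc
Klf6, chr13:5861239-5861488, plus strand, from -250 to -1: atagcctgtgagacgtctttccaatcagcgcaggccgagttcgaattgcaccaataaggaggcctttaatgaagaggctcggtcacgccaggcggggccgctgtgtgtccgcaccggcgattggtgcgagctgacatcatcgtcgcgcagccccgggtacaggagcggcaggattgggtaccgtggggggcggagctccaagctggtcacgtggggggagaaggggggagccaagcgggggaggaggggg

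Nr4a1 held 4 CRE half-sites, starting at -233, -213, -69 and -40, and 1 Egr site at -60. A CRE half-site lay in 17.8% of all windows and at least 4 of them in 0.137%, or 45 windows. For Egr2 a CArG box lay in 4 of the 5 windows, against 1.47% of all windows. In 3 of these 4 it was the box shown, together with 2 CRE half-sites.

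Klf2 and Klf4 each held 1 CRE half-site, starting at -241 and -232, and 1 Egr site, starting at -199 and -194, a motif of 2.57% of windows. Klf2 alone of the 5 genes held a MEF2 box, starting at -118, which 0.508% of windows hold. Each Egr site overlapped a GC box (GGGCGG, in 32.7% of windows), of which Klf6 held 1 and Klf4 held 4. The CACCC box (CACCC, in 52.0% of windows) was found for Klf2 and in windows of Egr2. The full CRE (TGACGTCA), the AP-1 site (TGANTCA), the Egr variant GCGTGGGCG and TATAAA were in none of these windows, and in 1.55%, 6.75%, 0.536% and 12.4% of all windows. These matches describe the letters and not binding.

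By 8 h the early genes had parted. Against 2 h, Egr1, Nr4a1, Klf2 and Klf10 were lower, 4 of the 6 tested, and 0 were higher, where 15.4% of all genes were lower and 20.4% higher, and Egr2 was lower in the fit without the filter, where 11.8% were. Klf6 stayed high. Against control only Klf6 and Klf10 were higher at 8 h, 2 of the 6 tested, where 17.7% of genes were higher and 24.2% lower.

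Egr1 read 7.88, 8.08, 7.70, 8.80 and 7.83 at 8 h, below all 2 h arrays. They overlapped the controls, arrays 3 and 5 lying below control array 1 and all 5 below control array 5. It differed by -3.65 ± 0.44 from 2 h (adjusted p = 1.03e-08). Against control it stood at 0.61 ± 0.44 and was not called (adjusted p = 0.281), but without control array 5, which read 9.35, it stood at 1.09 and passed (adjusted p = 0.0322). Its call at 8 h thus rested on 1 control array.

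Nr4a1, Egr2 and Klf2 overlapped the controls at 8 h. Nr4a1 read 7.14 to 7.32 and differed by -1.49 ± 0.23 from 2 h (adjusted p = 1.64e-06). Egr2 read 3.72 to 4.30 and differed by -2.20 ± 0.29 (adjusted p = 1.04e-07 without the filter). Klf2 read 6.12 to 6.21, the tightest of its groups (SD 0.0346), and differed by -0.68 ± 0.15 from 2 h (adjusted p = 0.000283). Against control their log2 fold changes of -0.14, -0.20 and -0.13 were not called at 8 h.

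Klf6 read 9.36, 8.87, 10.32, 9.15 and 10.26 at 8 h, every array above every control, as in 13.9% of all genes. It stood 3.44 ± 0.37 above control, or 10.9-fold (adjusted p = 4.24e-10), the 22nd largest absolute change of all genes tested. The difference from 2 h was 0.52 ± 0.37 and not called (adjusted p = 0.275). Klf6 was the one gene of the 7 with its highest group mean at 8 h, although that mean did not differ from the one at 2 h beyond the spread.

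Klf10 read 7.37, 7.40, 8.62, 8.69 and 9.16 at 8 h. Arrays 1 and 2 lay among the controls and arrays 3 to 5 above them. It was 1.17 ± 0.41 above control (adjusted p = 0.0200) and -1.504 ± 0.41 below 2 h (adjusted p = 0.00366). The call against control ended without control array 1 (0.90, adjusted p = 0.0933) or control array 3 (1.02 and 0.0613). It also ended without array 3 (1.07 and 0.0517), array 4 (1.06 and 0.0516) or array 5 (0.94 and 0.0836) at 8 h.

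**Figure D3:**
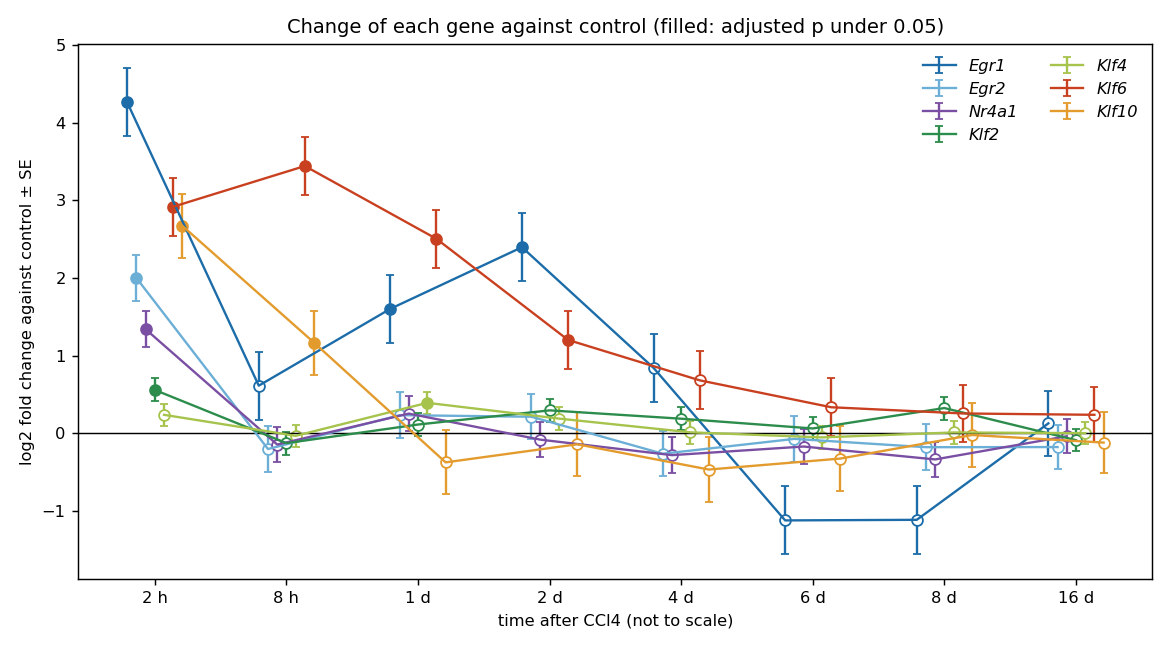
Log2 fold change of each gene against control (y axis, bars are standard errors) at the 8 times after CCl4 (x axis, not to scale), filled where the adjusted p is under 0.05. Egr1 falls from 4.26 at 2 h to 0.61 at 8 h and stands at 2.40 at 2 d, while Klf6 stands at 3.44 at 8 h and 2.50 at 1 d.

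At 1 d, when 25% of all genes were called higher and 25.1% lower, Egr1, Klf4 and Klf6 were higher than control, 3 of the 6 tested, and 0 were lower. Egr1 read 9.57, 8.17, 9.30, 9.34 and 8.85, which overlapped the controls only through control array 5 (9.35), and was 1.60 ± 0.44 above control (adjusted p = 0.00232). Between 8 h and 1 d it differed by 0.99 ± 0.44, which was not called (adjusted p = 0.0809). Without arrays 1 and 2 at 1 d, the 2 that stood apart, Egr1 was 1.72 above control (adjusted p = 0.00458).

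Klf6 read 8.38, 6.84, 9.70, 9.20 and 9.17 at 1 d. Array 2 was far lower than the others but still above all controls. The log2 fold change against control was 2.50 ± 0.37 (adjusted p = 3.52e-07), and 3.20 without arrays 1 and 2. Against 8 h it differed by -0.94 ± 0.37, a call at the edge of the threshold (adjusted p = 0.0493), and by -0.24 without arrays 1 and 2 (adjusted p = 0.663) or -0.48 without array 2 (0.289). Klf6 passed this step in 16 of 62 alternatives, and most of those that ended the call kept array 2.

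Klf4 read 5.51, 5.56, 5.51, 5.86 and 5.70 at 1 d, all above the control range of 5.13 to 5.42, as in 16.7% of all genes. It was 0.39 ± 0.14 above control (adjusted p = 0.0221) and 0.42 ± 0.14 above 8 h (adjusted p = 0.0208). Without array 4 at 1 d neither passed (0.33 and 0.0691 against control, 0.37 and 0.0676 against 8 h), and without array 4 at 8 h the step did not (0.38 and 0.0561). Without arrays 1 and 2 at 1 d it was 0.46 above control (adjusted p = 0.0250) and 0.49 above 8 h (adjusted p = 0.0248). The other probe set, 1417394_at, gave 1.498 ± 0.27 above control, with values of 5.24 to 6.30 at 1 d and 3.85 to 4.82 in control. With both probe sets Klf4 had its highest group mean at 1 d and not at 2 h.

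Klf10 lay within the control range at 1 d. It read 7.14, 6.16, 6.52, 6.77 and 6.95, differed by -1.54 ± 0.41 from 8 h (adjusted p = 0.00334) and by -0.37 ± 0.41 from control (adjusted p = 0.466). Of the 6 tested genes, Klf4 was thus higher and Klf6 and Klf10 lower at 1 d than at 8 h, where 20.8% of all genes were higher and 10.9% lower. Nr4a1 (0.25 ± 0.23), Egr2 (0.23 ± 0.29) and Klf2 (0.11 ± 0.15) were not called against control, though array 5 at 1 d read 8.22 for Nr4a1, above all controls. Without arrays 1 and 2 the log2 fold changes were 0.50 for Nr4a1 (adjusted p = 0.109), 0.34 for Egr2 and 0.16 for Klf2, again not called, and -0.34 for Klf10. Klf10 still differed from 8 h without them (adjusted p = 0.0144).

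At 2 d Egr1 was high again. It read 9.46, 9.31, 9.68, 10.62 and 10.12, and 4 of the 5 arrays were above all controls. It was 2.40 ± 0.44 above control, or 5.27-fold (adjusted p = 2.81e-05), and 1.78 ± 0.44 above 8 h (adjusted p = 0.000788). The difference between 1 d and 2 d, 0.79 ± 0.44, was not called (adjusted p = 0.174).

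Klf6 was the other gene of the 6 called higher at 2 d, where 21.1% of all genes were higher and 18.9% lower. It read 7.43, 6.77, 7.48, 7.60 and 7.49, tight except for array 2 and all above control, as in 15.7% of all genes. It was 1.20 ± 0.37 above control (adjusted p = 0.00898) and differed by -1.30 ± 0.37 from 1 d (adjusted p = 0.00545), where 15% of all genes were lower. This step was larger and called without arrays 1 and 2 at 1 d (adjusted p = 1.84e-05).

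Klf2 read 6.13, 6.48, 6.47, 6.86 and 6.93 at 2 d, not called at 0.30 ± 0.15 (adjusted p = 0.107), and passed without array 1 (0.41, adjusted p = 0.0292). Arrays 4 and 5 at 2 d were above the controls and above the other arrays of the group. The same 2 arrays were the highest of the group for Egr1, Egr2, Nr4a1 and Klf4. Egr2 read 5.49 on array 4, against 3.68 to 4.64 on the others.

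From 4 d to 16 d 0 of the 6 genes, nor Egr2 without the filter, were called against control. At 4 d 4.74% of all genes were higher and 2.21% lower. Egr1 read 9.31, 9.55, 7.30, 7.69 and 7.57 at 4 d, with arrays 1 and 2 at the level of 2 d and arrays 3 to 5 within the control range. It was 0.84 ± 0.44 above control (adjusted p = 0.299, and 1.32 and 0.0483 without control array 5) and differed by -1.55 ± 0.44 from 2 d (adjusted p = 0.00596), where 17.9% of all genes were lower.

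At 6 d Egr1 read 7.05, 6.59, 6.37, 5.64 and 5.96, below all arrays of 4 d, and differed by -1.96 ± 0.44 from them (adjusted p = 0.00187), where 7.3% of all genes were lower. Against control it stood at -1.12 ± 0.44 at 6 d (adjusted p = 0.615) and -1.11 ± 0.44 at 8 d (adjusted p = 0.343), neither of them called. The 6 d and 8 d arrays, which reached 5.64 and 5.74 at the lowest, overlapped the controls, and without control array 5 the differences were smaller in size (-0.64 each). At 16 d Egr1 ran from 6.85 to 8.64 with a median of 7.35, and its mean was 0.13 ± 0.42 above control.

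Klf6 read 6.77, 6.75, 6.86, 6.81 and 6.97 at 4 d, all above the control range of 5.92 to 6.43, as in 6.44% of all genes. The log2 fold change of 0.68 ± 0.37 was not called (adjusted p = 0.326). In a fit of only the control and 4 d arrays, whose own spread is small (SD 0.19 and 0.09, against 1.22 at 2 h), it was (adjusted p = 0.000201). From 6 d to 16 d the groups overlapped control, with log2 fold changes of 0.34, 0.26 and 0.24.

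The other genes overlapped control from 4 d on. Nr4a1 ran from 6.83 to 7.32 from 4 d to 8 d and from 7.06 to 7.64, with a median of 7.29, at 16 d. Klf10 spread widely, with 5.53 to 8.39 at 4 d and 5.67 to 7.75 at 6 d, as it did in control. Klf2 reached 6.27, 6.74, 6.38, 6.86 and 6.79 at 8 d, with 3 arrays above all controls, and was not called (0.33 ± 0.15, adjusted p = 0.450). At 6 d, 8 d and 16 d 0.0227%, 0.144% and 1.51% of all genes were called in either direction.

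The order of the 9 group means differed from gene to gene. For Egr1 it ran 2 h, 2 d, 1 d, 4 d, 8 h, 16 d, control, 8 d and 6 d, and only 2 h and 2 d differed among neighbours (1.87 ± 0.44, adjusted p = 0.000427). For Egr2 and Nr4a1 the 2 h mean was above the next, that of 1 d, by 1.77 and 1.09 (adjusted p = 3.11e-06 without the filter and 0.000107), and no later neighbours differed. For Klf10 the order began 2 h, 8 h and control, each different from the next, and the remaining neighbours did not differ.

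For Klf6 the order ran 8 h, 2 h, 1 d, 2 d, 4 d, 6 d, 8 d, 16 d and control, and only 1 d and 2 d differed among neighbours. Klf2 and Klf4 had no neighbours that differed, with 2 h first and 8 h last for Klf2 and 1 d first and 6 d last for Klf4. The F-test over all times was passed by Egr1 (adjusted p = 6.83e-14), Klf6 (1.16e-12), Klf10 (3.05e-08), Nr4a1 (4.48e-07) and Klf2 (0.000902). Egr2 passed it without the filter (5.98e-08), and Klf4 did not (0.0509), where 83.4% of all genes did.

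**Figure D4:**
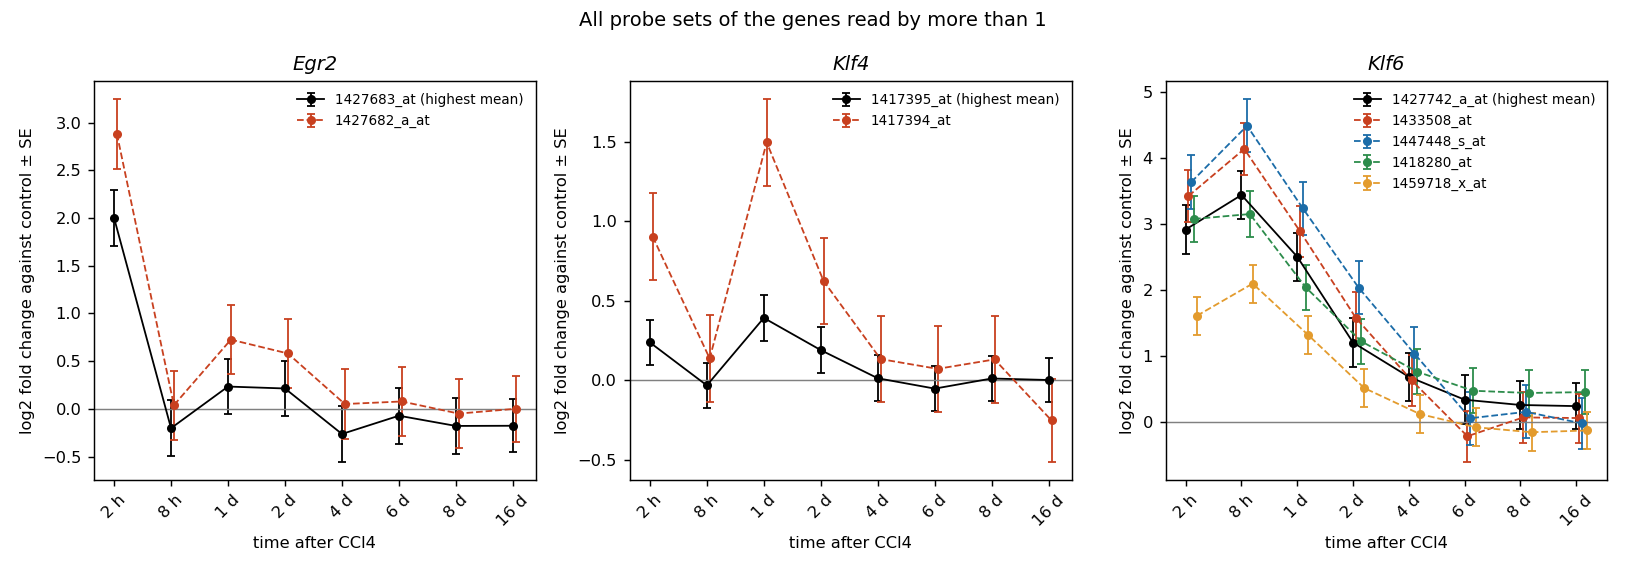
Log2 fold change against control (y axis, bars are standard errors) by every probe set of Egr2, Klf4 and Klf6 at the 8 times after CCl4 (x axis). The 5 probe sets of Klf6 stand between 2.10 and 4.49 at 8 h, whereas those of Klf4 stand at 0.39 and 1.498 at 1 d.

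All 5 probe sets of Klf6 were higher at 2 h, from 1.61 by 1459718_x_at to 3.64 by 1447448_s_at, and at 8 h, from 2.10 to 4.49. At 1 d they ran from 1.31 to 3.24. The lowest of them, 1459718_x_at, whose suffix marks probes that may also match other transcripts, was not called at 2 d (0.51, adjusted p = 0.158). At 4 d they ran from 0.12 to 1.03 and at 6 d from -0.22 to 0.47, in both directions around control.

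Over the 9 group means, which share arrays within a time and are a description only, Egr2 and Nr4a1 were the pair most alike (r = 0.97). Egr1 correlated with Egr2 at 0.82 and with Nr4a1 at 0.81. Klf6 and Klf10 reached 0.67, and Klf6 correlated with Klf2 at 0.15 and Klf4 with Klf10 at 0.19.

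Among all genes tested whose means ranged over at least 1, the 3 most like Egr1 were Rhob (0.94), Fos (0.93) and Jund (0.92). For Egr2 they were Ier2 (0.98), Nr4a1 (0.97) and Dnajb4 (0.96), and for Nr4a1 Dnajb4 (0.96), Junb (0.95) and Zbtb16 (0.92). For Klf2 they were Mrtfb (0.86), Tcim (0.85) and Ier2 (0.83), and for Klf4 Nfkbiz (0.97), Thbd (0.93) and Akap12 (0.90). Klf6 was most like Mcl1 (0.99), Hspa4l (0.98) and Eif2ak3 (0.98), and Klf10 most like Ccnl1 (0.98), Zfp119b (0.97) and Tns1 (0.97).

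Other genes of the same families were read beside these. Of the other Egr and Nr4a genes, Egr3, Egr4 and Nr4a3 were tested, and Nr4a2 did not pass the filter on low values. At 2 h 0 of the tested ones were called, where 6.41% of all genes were higher and 19.9% lower, so this does not set them apart. Egr4 and Nr4a3 were lower at 1 d (-0.23 and -0.26) and 2 d (-0.32 and -0.21), but without the 2 arrays that stood apart at 1 d Egr4 was not (-0.16, adjusted p = 0.224). The call for Nr4a3 at 2 d ended without array 3 or 5 of that time. Of 10 other Klf genes tested, 3 were higher at 2 h and 0 lower, where 6.41% of all genes were higher and 19.9% lower. Their median was 0.03, against -0.03 for all genes. The 3 were Klf11, another TGF beta inducible family member, at 1.01, Klf9, a gene responsive to glucocorticoids, at 0.71 and Klf3 at 0.48.

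The other Klf genes called at 8 h, 1 d and 2 d were all lower than control. Their counts are small and were not tested against the shares over all genes. At 8 h 4 of the 10 were lower and 0 higher, where 24.2% of all genes were lower, with Klf12 at -2.02, Klf15, a regulator of amino acid and glucose metabolism in liver, at -1.68, Klf1 at -0.53 and Klf13 at -0.34. At 1 d 4 were lower, where 25.1% of all genes were, Klf15 (-1.44), Klf12 (-1.15, and -0.68 without the 2 arrays that stood apart), Klf1 (-0.89) and Klf9 (-0.62). At 2 d 3 were lower, where 18.9% of all genes were, Klf15 (-1.003), Klf9 (-0.78) and Klf1 (-0.59). From 4 d on 0 of the 10 were called. Klf9, above control at 2 h, was below it at 2 d, while its call at 1 d ended without the 2 arrays that stood apart (-0.27, adjusted p = 0.281) or without control array 5. The call for Klf13 at 8 h ended in 6 of 46 fits that each left out 1 array, those without control arrays 3, 4 or 5 or arrays 3, 4 or 5 at 8 h.

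**Figure D5:**
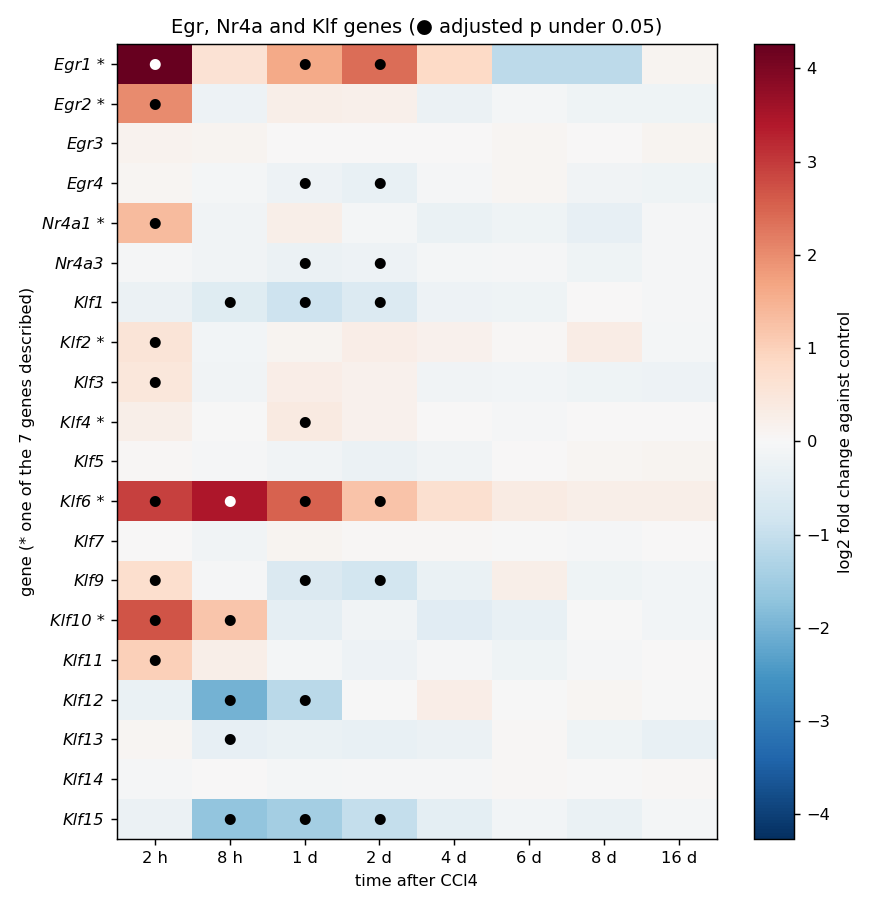
Log2 fold change against control (colour) of 20 Egr, Nr4a and Klf genes (y axis, those described here marked with a star) at the 8 times after CCl4 (x axis), where dots mark an adjusted p under 0.05. Klf12 and Klf15 stand at -2.02 and -1.68 at 8 h, where Klf6 stands at 3.44.

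Genes known to act upstream are set beside shares over all genes at 2 h of 6.41% higher and 19.9% lower. Of Srf and its cofactors 1 of 6 was higher, Mrtfb, a coactivator of Srf (0.81), and 2 were lower, the Ets factors Elk3 (-1.01) and Elk4 (-0.35). Elk3 was later higher, by 0.78 at 2 d and 0.86 at 4 d. Srf itself was called only at 1 d (-0.16), and not without the 2 arrays that stood apart there (-0.08, adjusted p = 0.365). Of 8 genes of the Erk5 and Mef2 pathway, which induces Klf2 and Klf4 in endothelium, 0 were called at 2 h, and Map3k3, a kinase at its top, was 0.60 higher at 8 h. Of 5 genes of the Creb pathway, Creb1 was lower at 2 h (-0.34), a call that ended without control array 4 or 5 or array 3 or 4 at 2 h. At 8 h 3 of the 5 were higher and 0 lower, where 17.7% of all genes were higher and 24.2% lower. Without control array 3 only 1 was higher. Crem, a cAMP responsive family member, was higher at 8 h (0.55, not called without control array 3) and 1 d (0.94).

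Both corepressors of the Egr proteins were lower at 8 h, Nab1 by -0.41 and Nab2, itself an Egr1 target, by -0.57. At that time 24.2% of all genes were lower. Nab1 was lower at 2 h as well (-0.42), and Nab2 was 0.27 higher at 2 d. Each of these last calls ended in 7 of the 46 fits that left out 1 array, of the 2 groups compared, and the call for Nab1 at 8 h ended in 4. Of 8 TGF beta and Smad genes, the pathway that induces Klf10, 2 were higher at 2 h, Skil, a feedback repressor of Smads, at 1.13 and the receptor gene Tgfbr1 at 0.37, the latter not called without control array 1, 2 or 5 or array 2 or 3 at 2 h. At 8 h and 1 d 6 of the 8 were higher and 0 lower, where 17.7% and 25% of all genes were higher, with Tgfbr2 at 0.81 and 0.70 and Skil at 0.76 and 1.35, while Klf10 lay within the control range at 1 d. The calls for Smad2 and Smad3 at 8 h (0.26 and 0.31) ended in 4 and 5 of the 46 fits. The ligand gene Tgfb1 was not called at any time.

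Of 7 genes listed as targets of Egr1, 1 was higher and 0 lower at 2 h, where 6.41% of all genes were higher and 19.9% lower, Pdgfb, a growth factor gene (0.26, not called without control array 2, 4 or 5 or array 3 at 2 h). At 1 d 3 were higher and 1 lower, where 25% and 25.1% of all genes were, and at 2 d 4 were higher and 1 lower, where 21.1% and 18.9% were. Cd44, a receptor for hyaluronan, stood at 1.55 at 1 d, 1.87 at 2 d and 1.31 at 4 d, Icam1, an adhesion molecule, at 1.03 and 0.84 at 1 d and 2 d, and Pdgfa, of the same family as Pdgfb, at 0.40 and 0.48. Vegfa, the vascular growth factor gene, was lower at 8 h (-0.61), 1 d (-0.78) and 2 d (-0.52).

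Of 7 genes listed as endothelial targets of Klf2 and Klf4, 1 was higher and 2 lower at 2 h, against the same 6.41% and 19.9% of all genes. Thbd (thrombomodulin), an anticoagulant receptor, stood at 1.91 at 2 h, 1.87 at 1 d and 1.54 at 2 d, times at which the group mean of Klf4 was also highest, and was not called at 8 h. Cxcl12, a chemokine, was lower at 2 h, 8 h and 1 d (-0.94, -1.05 and -0.94), and S1pr1, the sphingosine 1-phosphate receptor, was lower at 2 h (-0.37, a call that ended in 5 of the 46 fits) and 8 h (-1.13). Nos3, the endothelial nitric oxide synthase gene, was called only at 2 d (0.27), and not without control array 5 or array 4 or 5 at 2 d.

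Of 6 genes listed as liver targets of Nr4a1, 0 were higher than control at any time. At 2 h, 8 h, 1 d and 2 d 6.41%, 17.7%, 25% and 21.1% of all genes were higher. At these times 1, 2, 3 and 4 of the 6 were lower, where 19.9%, 24.2%, 25.1% and 18.9% of all genes were. At 4 d 1 was lower, where 2.21% of all genes were. Srebf1, which encodes a regulator of lipogenesis that Nr4a1 represses, was lower at 2 h (-0.81), 8 h (-1.68) and 1 d (-1.07). G6pc1, the glucose-6-phosphatase gene, was lower at 1 d (-1.52) and 2 d (-1.88), although at 1 d the call ended without array 1 (-0.88 and adjusted p = 0.153 without both arrays that stood apart). Fbp1 was lower at 8 h, 1 d and 2 d (-0.46, -0.85 and -0.58) and Pck1, the rate-limiting enzyme gene of gluconeogenesis, at 2 d (-2.44) and 4 d (-1.65, a call that ended in 6 of the 46 fits).

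Markers of other liver cells also differed from control, in either direction, at times when these genes did. At 2 h, when Klf2 was higher, 6 of 9 sinusoidal endothelial markers were lower and 1, Lyve1 (0.78), higher, where 19.9% of all genes were lower and 6.41% higher. The call for Lyve1 ended in 2 of the 46 fits that left out 1 array, those for Stab2, Clec4g and Cdh5, all lower, in 4, 6 and 8, and that for the Kupffer cell marker Clec4f in 6. The mean level of the sinusoidal markers ran from 7.57 to 7.79 at 2 h and from 7.83 to 7.96 in control (adjusted p = 0.0381, exact permutation test). Kupffer cell markers ran from 7.32 to 7.60 at 2 h against 7.79 to 7.98 (2 of 7 lower, 0 higher), and neutrophil markers from 5.81 to 6.17 against 5.72 to 6.08, with 0 of 4 called. The part of these cells in the values at 2 h was not tested.

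At 8 h, when the group mean of Klf6 was highest, 7 of 9 sinusoidal endothelial markers were lower and 1 higher, and 6 of 7 Kupffer cell markers were lower and 0 higher, where 24.2% of all genes were lower. The sinusoidal mean ran from 7.52 to 7.78 and the Kupffer cell mean from 7.31 to 7.52, both below all controls (adjusted p = 0.0381 each, exact permutation test). Neutrophil markers ran from 5.74 to 6.196, with 0 of 4 called. Stellate cell markers ran from 7.21 to 7.49 at 8 h against 7.48 to 7.65 in control (adjusted p = 0.0565, exact permutation test). Of these 6 genes 3 were lower and 0 higher at 8 h, and 0 were called at 2 h. The part of these cells in the level of Klf6 at 8 h was not tested.

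At 1 d and 2 d, when Egr1 and Klf6 were higher, neutrophil markers ran from 6.45 to 7.87 and from 6.27 to 6.95. Of the 4 genes 2 were higher each time, where 25% and 21.1% of all genes were. They were S100a8, by 3.25 and 2.09, and S100a9, by 2.10 and 0.96, while Csf3r and Cxcr2 were not called. The mean of markers of monocyte-derived macrophages ran from 6.73 to 7.09 at 1 d, 6.71 to 7.85 at 2 d and 7.31 to 7.84 at 4 d. In control it ran from 6.45 to 6.60. Of the 5 genes 1, 3 and 2 were higher at these times and 0 lower, where 25%, 21.1% and 4.74% of all genes were higher. Their median log2 fold changes were only 0.11, 0.24 and 0.19, and Gpnmb was higher at 2 d (1.62) and 4 d (2.71). Stellate cell markers ran from 7.23 to 7.59 at 1 d, with 1 of 6 higher and 2 lower, where 25.1% of all genes were lower. At 2 d they ran from 7.61 to 7.93 and at 4 d from 7.82 to 8.00, against 7.48 to 7.65 in control. There 1 and 2 of the 6 were higher and 0 lower, where 21.1% and 4.74% of all genes were higher. Hepatocyte markers ran from 13.53 to 13.95 at 1 d against 13.97 to 14.14. The part of these cells in the later levels of Egr1, Klf4 and Klf6 was not tested.

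Clock genes, whose levels depend on the hour of sampling, bear on genes such as Klf9 and Klf10 that cycle in liver. At 2 h 1 of 13 was higher, Per1 (0.51), and 2 were lower, Per3 (-0.91) and Per2 (-0.28), where 6.41% of all genes were higher and 19.9% lower. The calls for Per1, Per3 and Per2 ended in 4, 2 and 6 of the 46 fits that left out 1 array. At 8 h only Hlf was called (-0.38), where 17.7% of all genes were higher and 24.2% lower. At 1 d 3 were higher and 8 lower, where 25% of all genes were higher and 25.1% lower. Among them were Dbp (-3.19), Cry1 (2.13), Per3 (-1.21) and Tef (-1.02). Without the 2 arrays that stood apart, Bmal1 (higher) and Nr1d2 and Ciart (both lower) were not called. At 2 d 1 of the 13 was higher and 6 were lower, where 21.1% of all genes were higher and 18.9% lower. From 4 d on 0 of the 13 were called, where 4.74% of all genes were higher and 2.21% lower at 4 d. The part of the hour of sampling in these results was not tested.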

How the data were processed

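Total RNA of 46 liver samples was hybridised to single-colour Affymetrix arrays. The deposited values are log2 expression per probe set, which per the submitters' processing notes were made from the scanned arrays with oligo 1.52.0 and RMA (background correction, quantile normalization and summary over probes). RMA can compress low values, so folds of dim genes such as Egr2 and Klf4 may be understated, which was not tested. No counts or depths apply to arrays, and their number limits the precision.

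Of 45101 probe sets 34945 name 1 gene, 932 several and 9160 none, and 64 are controls. The 34741 symbols that matched RefSeq were updated. Each gene was read from its probe set with the highest mean, and 13239 genes above 5.55823 on at least 5 arrays were tested. A model with 9 group means was fitted with limma 3.58.1 in R 4.3.3 (37 residual degrees of freedom), with Benjamini-Hochberg adjustment over all genes and a threshold of 0.05. Figures used Python 3.11.15 and matplotlib 3.10.9. Marker means were compared by exact two-sided permutation tests, adjusted over 96 tests, the smallest possible p being 0.00794 for 5 arrays against 5. The code was tested on simulated data.

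The members and lists were chosen with earlier results of these data known. Named are the 7 members, list genes called at a time the text describes, and the 3 genes with the highest correlation of group means for each member. Alternatives were another normalization, filter, probe set, model or array set.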

Additional observations from a re-analysis of the deposited data

Results flagged for a closer look

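In 3 of the 63 groups of arrays of the 7 genes, 1 array stood far from the others of its group by Dixon's test, which chance flags in about 1 group in 20. Klf2 read 6.14 on array 2 at 1 d, against 6.42 to 6.52 on the others. Klf6 read 6.77 on array 2 at 2 d, against 7.43 to 7.60. Klf10 read 5.70 on array 4 at 16 d, against 6.90 to 7.56.

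The levels of the 7 genes differed between successive times in 11 of 49 steps tested. Of all genes tested, 20.4% were higher and 15.4% lower at 8 h than at 2 h. At 1 d 20.8% were higher and 10.9% lower than at 8 h. At 2 d, 4 d and 6 d 15%, 17.9% and 7.3% were lower than at the time before. Among the 7 genes the log2 difference between 2 h and 8 h was -3.65 for Egr1, -2.20 for Egr2, -1.49 for Nr4a1, -0.68 for Klf2 and -1.504 for Klf10. Between 8 h and 1 d it was 0.42 for Klf4, -0.94 for Klf6 and -1.54 for Klf10. Between 1 d and 2 d it was -1.30 for Klf6, and for Egr1 it was -1.55 between 2 d and 4 d and -1.96 between 4 d and 6 d.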

How the results depend on the processing

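No called value of the 7 genes changed sign under the 58 to 62 alternatives run for each of them. Counts of the 6 tested genes stayed within 1.5 times those of the report, in either direction, except as follows. When a change of at least 1.5-fold was required, 3 genes passed at 2 h, 1 at 8 h, 1 at 1 d and 1 at 2 d against control, and 2 at 8 h against 2 h, 0 at 1 d against 8 h, 0 at 2 d against 1 d, 0 at 4 d against 2 d and 0 at 6 d against 4 d. With only both groups in the fit, 1 gene passed at 4 d against control, 0 at 2 d against 1 d and 2 at 4 d against 2 d. At 2 d against 1 d, 2 genes passed with the mean of all probe sets and 3 with array weights. Leaving out 1 array at a time gave 5 to 5 genes at 2 h, 1 to 3 at 8 h, 2 to 3 at 1 d, 2 to 3 at 2 d and 0 to 1 at 4 d. Without both arrays that stood apart at 1 d the count at 1 d against 8 h was 2, Klf6 being lost, and other counts stayed. Leaving out 1 array gave 4 to 5 at 8 h against 2 h, 2 to 3 at 1 d against 8 h and 5 to 6 over all times.

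The arrays of different groups share replicate numbers, but same-numbered arrays did not deviate together (median correlation 0.0093 over 180 pairs, from -0.27 to 0.37). Of 46 arrays, 14 correlated best with their own number. With the replicate number as a block the count at 2 h was 5 of 6, and counts at the other times and steps stayed, while over all times 6 genes passed in place of 5.

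Egr2 and Klf4 lie near the lower end of the scale, which limits what their values can show.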
